A study of Mus musculus with 9 samples.

Results

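The keratins of simple epithelium Krt7, Krt8, Krt18, Krt19, Krt20, Krt23 and Krt80 were followed in colonies of mouse intestinal stem cells grown in 3 kinds of matrix. They were chosen by name, with earlier results of these data known. All 7 were found among the 46517 genes counted and among the 54 genes annotated as keratins. Dissociated intestinal stem cells (ISCs, the dividing cells at the base of the intestinal crypt) were embedded in Matrigel, in a non-degradable hydrogel of polyethylene glycol (PEG) or in a degradable PEG hydrogel, and RNA was taken after 4 days. Each matrix had 3 libraries, 9 in all. Every culture received R-spondin, noggin, EGF, CHIR99021, which inhibits the kinase GSK3, and valproic acid, which inhibits histone deacetylases, so Wnt signalling was stimulated in all 3 groups. Matrigel is a basement membrane extract of a mouse tumour and has no defined composition, whereas PEG is inert by itself. The labels give no animal, strain or clone, and name no peptide or protein built into the PEG. Nothing in them says that replicates are separate cultures, and each p-value therefore measures the spread among these libraries alone, part or all of which may be technical.

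Keratins are the intermediate filaments of epithelial cells. A filament is built from heterodimers of 1 acidic type I chain with 1 basic type II chain, and a chain without a partner is normally degraded. Krt18, Krt19, Krt20 and Krt23 are type I chains, and Krt7, Krt8 and Krt80 are type II chains. In the intestine Krt8 is the main type II chain of the whole epithelium. Krt18 and Krt19 are its usual partners, Krt20 marks differentiated cells of the villus and the colon surface, and Krt7 is better known from ducts and other simple epithelia. The filaments are anchored to neighbouring cells at desmosomes and to the matrix at hemidesmosomes.

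The libraries held 38.0 M to 47.2 M reads assigned to genes. Levels are given as CPM, the read count of a gene per 1 M reads after scaling of library sizes (TMM), and where different genes are set side by side they are given per kilobase of the principal transcript (CPM/kb). The 8 stem cell markers summed to 3387 to 3573 CPM in Matrigel, to 2647 to 2669 CPM in non-degradable PEG and to 3141 to 3292 CPM in degradable PEG, with no overlap between matrices. Smoc2, the largest part of this sum, was at means of 1944 CPM, 1157 CPM and 1386 CPM in the same order. The order of the sum is that of Smoc2 and not of every marker. By the test described below, 2 of the 8 were higher and 3 lower in non-degradable PEG than in Matrigel. In degradable PEG 4 were higher and 1 lower than in Matrigel. Of all tested genes 16.8% and 12.2% passed in these 2 comparisons. Markers of mesenchyme summed to 5.07 CPM to 9.43 CPM, with Col3a1, Dcn and Lum at 0, and those of endothelium to at most 0.316 CPM, with Cdh5 at 0. Those of blood cells summed to at most 3.88 CPM, with Ptprc and Hbb-bs at 0. No library stood apart: log2 CPM correlated at 0.991 to 0.995 within a matrix and at 0.969 to 0.993 between matrices.

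The type II genes lay on chromosome 15 and so did Krt18, the only type I member there. On GRCm38 their positions were 101347444 to 101370162 for Krt80 (ENSMUSG00000037185, minus strand), 101411043 to 101430313 for Krt7 (ENSMUSG00000023039, plus), 101996698 to 102004482 for Krt8 (ENSMUSG00000049382, minus) and 102028180 to 102032027 for Krt18 (ENSMUSG00000023043, plus). The other type I members lay on chromosome 11, all on the minus strand, at 99428403 to 99438150 for Krt20 (ENSMUSG00000035775), 99477974 to 99493137 for Krt23 (ENSMUSG00000006777) and 100140810 to 100148665 for Krt19 (ENSMUSG00000020911). Krt8 and Krt18, which pair as proteins, were neighbours 23697 bp apart with no other keratin gene between them. Krt20 and Krt23 were 39823 bp apart and Krt80 and Krt7 were 40880 bp apart, again with no keratin gene between. By contrast 23 keratin genes lay between Krt7 and Krt8 and 11 between Krt23 and Krt19. The 2 clusters held 27 annotated keratin genes each.

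Promoters are shown for the neighbours Krt8 and Krt18, whose levels were both highest in degradable PEG, and for Krt20, whose levels were highest in non-degradable PEG. Each window runs from 250 bases before to 50 bases after the start that RefSeq gives (GRCm38.p6), read 5′ to 3′ on the gene's strand. The windows are chr15:102004293-102004592 on the minus strand for Krt8, chr15:102027966-102028265 on the plus strand for Krt18 and chr11:99438104-99438403 on the minus strand for Krt20. Capitals mark matches to the motifs described after the sequences.
Krt8: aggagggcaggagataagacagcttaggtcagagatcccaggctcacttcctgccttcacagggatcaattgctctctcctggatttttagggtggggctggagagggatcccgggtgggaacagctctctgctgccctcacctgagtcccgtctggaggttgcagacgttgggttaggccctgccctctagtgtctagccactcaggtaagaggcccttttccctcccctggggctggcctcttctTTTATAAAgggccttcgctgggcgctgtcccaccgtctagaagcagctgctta
Krt18: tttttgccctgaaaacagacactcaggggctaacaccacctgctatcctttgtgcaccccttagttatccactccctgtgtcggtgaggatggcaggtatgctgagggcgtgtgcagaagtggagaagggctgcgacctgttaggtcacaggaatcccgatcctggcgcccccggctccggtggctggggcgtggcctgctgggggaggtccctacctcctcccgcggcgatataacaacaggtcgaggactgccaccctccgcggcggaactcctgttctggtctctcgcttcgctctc
Krt20: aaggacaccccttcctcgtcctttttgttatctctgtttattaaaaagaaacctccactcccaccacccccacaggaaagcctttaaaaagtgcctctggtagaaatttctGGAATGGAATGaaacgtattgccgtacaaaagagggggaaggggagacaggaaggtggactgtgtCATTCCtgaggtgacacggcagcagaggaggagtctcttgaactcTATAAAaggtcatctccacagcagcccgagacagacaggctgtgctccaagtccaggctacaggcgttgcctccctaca
The motifs searched, on both strands, were the TATA box TATAAA, the GC box GGGCGG, the AP-1 site TGANTCA and the TEAD site GGAATG. Of 32851 promoter windows of this length, 13.6% held TATAAA, 35.7% GGGCGG, 7.81% TGANTCA and 14.7% GGAATG. In Krt8, TATAAA matched on the plus strand at position -1 and on the minus strand at position -3 from the RefSeq start, and the matches overlapped in the run TTTATAAA. The Krt18 window held none of the 4 motifs. In Krt20, TATAAA stood at -29, and GGAATG matched 3 times, at -139 and -134, which overlap by 1 base, and on the minus strand at -74. Windows were also at hand for Krt7, with 4 GC boxes at -141, -128, -56 and -24, and for Krt23, with no match, so 5 of the 7 members were searched and none held the AP-1 motif. A match of letters is a description of the window and was not tested as a site.

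The 7 genes took 99.8% of all reads on keratin genes. Their sum was 2187 ± 193 CPM in Matrigel, 2759 ± 322 CPM with the non-degradable gel and 3455 ± 345 CPM with the degradable one (SD, n = 3). The lowest and highest libraries were 2049 CPM and 2407 CPM in Matrigel, 2489 CPM and 3115 CPM in non-degradable PEG, and 3107 CPM and 3796 CPM in degradable PEG. The range of Matrigel did not reach that of either PEG, and the PEG ranges met only at their ends, where the highest non-degradable library lay above the lowest degradable one. As a share of assigned reads these sums were 0.219 ± 0.0209%, 0.273 ± 0.0275% and 0.349 ± 0.0405% in the same order. In bulk RNA such as this, a change in the share of cells that express a gene and a change in the RNA per cell cannot be told apart.

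Per kilobase, the order of levels in Matrigel was Krt8 (437 ± 34.1 CPM/kb), Krt18 (351 ± 49.2), Krt19 (295 ± 17.9), Krt7 (66.3 ± 7.10), Krt23 (37.7 ± 6.02), Krt20 (14.3 ± 1.35) and Krt80 (0.710 ± 0.278; SD, n = 3). Only Krt18 and Krt19 overlapped among neighbours in that order. In degradable PEG the order was the same, from Krt8 at 737 ± 69.5 CPM/kb to Krt80 at 1.49 ± 0.215 CPM/kb, with no overlap between neighbours. In non-degradable PEG Krt19 (474 ± 50.6 CPM/kb) stood above Krt18 (375 ± 50.3 CPM/kb) in mean, but Krt8 and Krt19 overlapped, as did Krt19 and Krt18, and also Krt23 (29.0 ± 2.03 CPM/kb) and Krt20 (25.5 ± 4.9998 CPM/kb). With levels per kilobase of coding sequence, Krt18 and Krt19 overlapped in degradable PEG as well, while in non-degradable PEG Krt19 lay above Krt18 with no overlap and Krt20 (38.0 ± 7.45) stood above Krt23 (35.9 ± 2.51) in mean. Among 13017 genes ranked per kilobase, Krt8, Krt18 and Krt19 lay between the 99.0 and the 99.8 percentile in every matrix. Krt80 lay between the 12.5 and the 18.4 percentile. Krt20 lay at the 56.6 percentile in Matrigel, at the 72.9 in non-degradable PEG and at the 56.4 in degradable PEG.

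**Figure D1:**
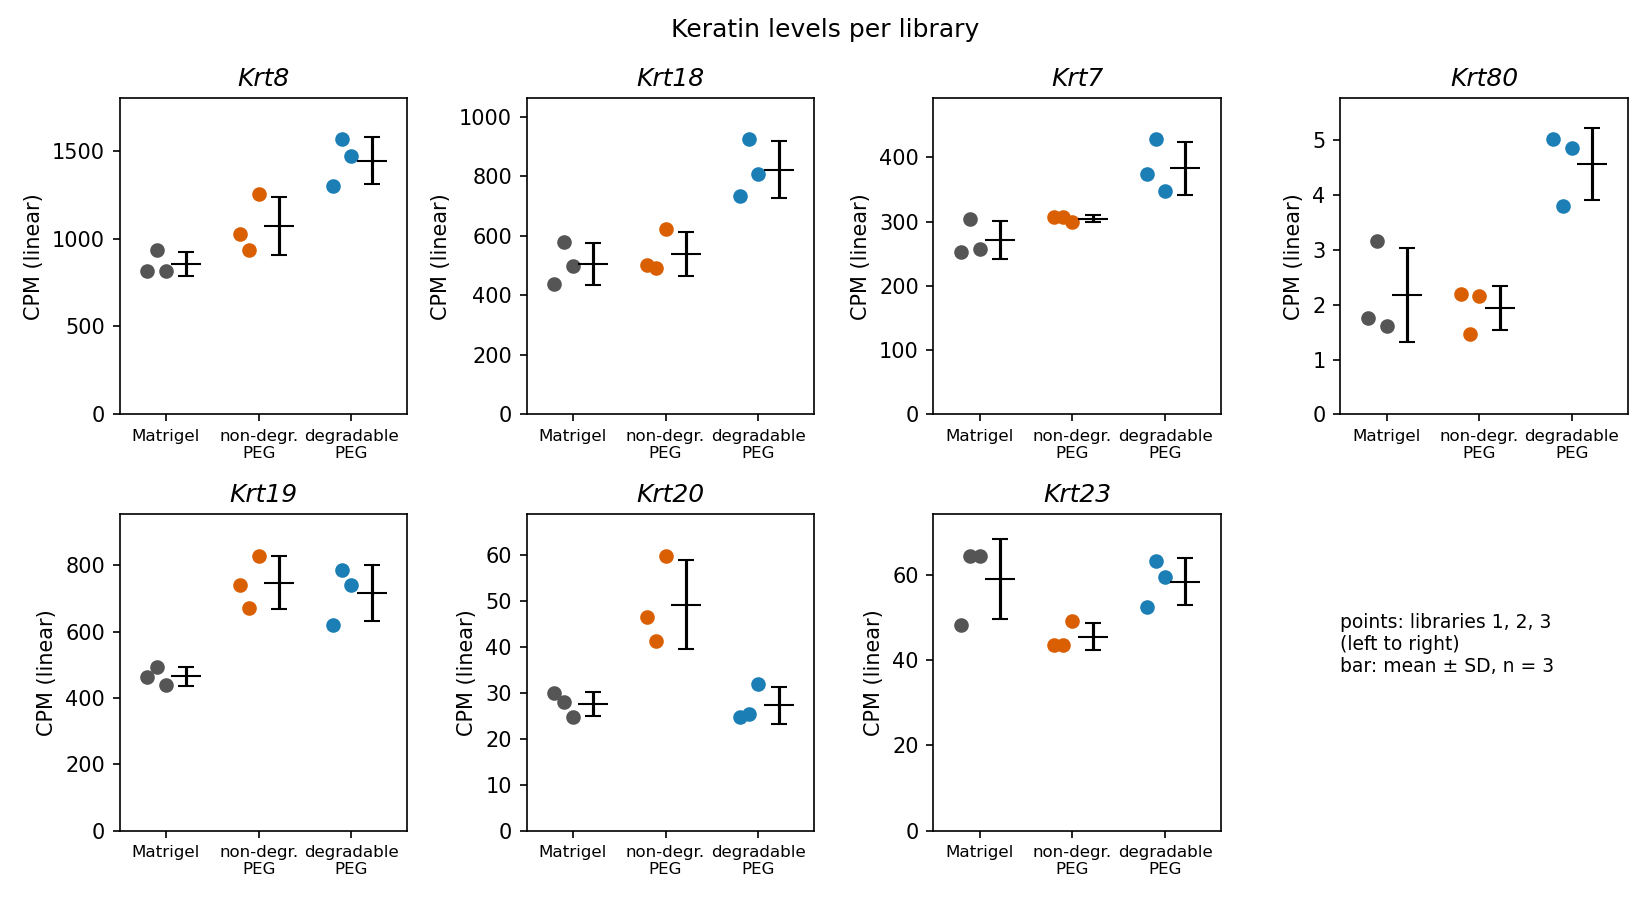
Level in CPM (linear axes from 0) of the 7 keratins in each of the 9 libraries, 1 panel per gene, with a point per library, replicates 1 to 3 from left to right, and a bar for the mean ± SD of each matrix (n = 3). Krt7, Krt8, Krt18 and Krt80 are highest in degradable PEG, Krt20 is highest in non-degradable PEG, and Krt19 is higher in both PEG gels than in Matrigel.

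Against Matrigel, 2 of the 7 keratins, Krt19 and Krt20, rose in non-degradable PEG and 1, Krt23, fell, at an adjusted p under 0.05 in edgeR's quasi-likelihood test with Benjamini-Hochberg adjustment over 14870 genes. Of all tested genes, 16.8% passed in either direction, 9.71% as higher and 7.13% as lower. The median log2 fold change of the 7 was 0.17, beside -0.0021 over all tested genes. In degradable PEG, against the same 3 Matrigel libraries, 5 of 7 rose (Krt7, Krt8, Krt18, Krt19 and Krt80) and 0 fell. Here 12.2% of all tested genes passed, 7.42% as higher and 4.79% as lower, and the median was 0.62 for the 7 beside -0.0163 over all tested genes. The ranges of the 2 matrices were apart for those 5 keratins in degradable PEG, as for 30.4% of all tested genes, and for Krt19 and Krt20 in non-degradable PEG, as for 43.4%. The 2 comparisons share their Matrigel libraries and so are not independent of each other.

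Between the gels, 2 of 7 keratins passed, Krt20 as higher and Krt18 as lower in non-degradable than in degradable PEG. Of all tested genes 1.28% passed, 0.814% as higher and 0.464% as lower. An unadjusted p under 0.05 was found for 6 of the 7, beside 2203 of 14870 genes. With DESeq2, with all counted genes kept and with the replicate number as a block, 5 of the 7 passed each time, beside 3.44%, 2.05% and 3.64% of all genes tested at that setting. The ranges of the gels were apart for 6 of the 7, 1 higher and 5 lower, as for 19.0% of all tested genes. The median of the 7 was -0.36 beside 0.0033 over all tested genes. Leaving out 1 library moved the count of keratins and that of all genes: it was 0 without non-degradable PEG replicate 1, where 0.185% of all tested genes passed, and 0 without degradable PEG replicate 2, where 0.126% did. The keratin count was 1 without Matrigel replicate 3, without non-degradable PEG replicate 2, without degradable PEG replicate 1 and without degradable PEG replicate 3.

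**Figure D2:**
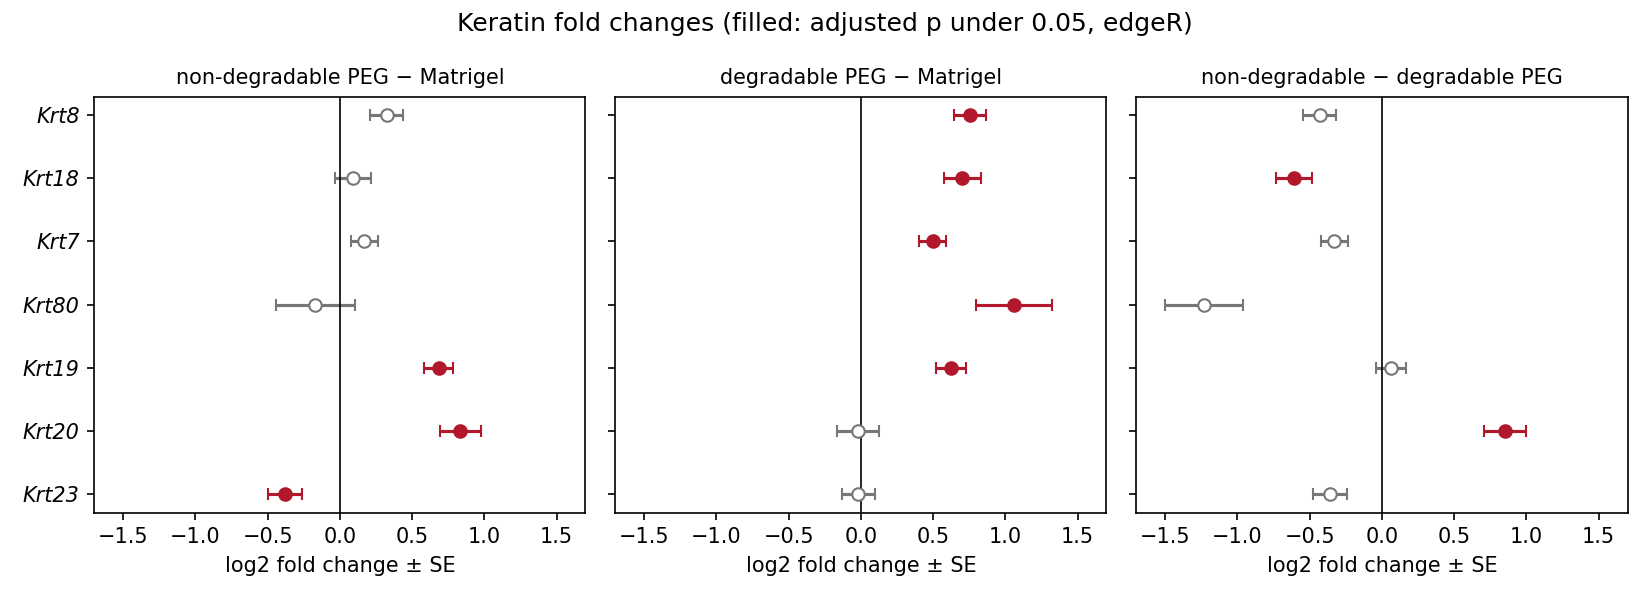
Log2 fold change of the 7 keratins in the 3 comparisons, with bars of 1 standard error and filled points for an adjusted p under 0.05. Each panel subtracts the second matrix from the first; Krt20 lies at 0.83 and 0.85 in the panels with non-degradable PEG first and at -0.02 in the middle one, and Krt80 has the widest bars.

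Krt8, the main type II partner in simple epithelium, was at 817, 933 and 818 CPM in Matrigel replicates 1, 2 and 3. It was at 1028, 932 and 1254 CPM in non-degradable PEG and at 1297, 1565 and 1469.7 CPM in degradable PEG. All degradable libraries lay above all others, while the lowest non-degradable library lay just under the highest Matrigel library. In degradable PEG Krt8 rose by 0.75 ± 0.113 on the log2 scale (SE; adjusted p = 0.00154). In non-degradable PEG the difference from Matrigel was 0.32 ± 0.112 (adjusted p = 0.0694), which passed with DESeq2 (0.0331), with no filter (0.0268) and without non-degradable PEG replicate 2 (0.0363). Between the gels it was -0.43 ± 0.112 (adjusted p = 0.105). This passed under 3 of 16 alternatives: DESeq2 (0.0138), no filter (0.00689) and without non-degradable PEG replicate 3 (0.0313). Of the 50-base windows of its transcript, 26.9% occurred also in the processed pseudogene Krt8-ps, and 2.78% were covered by Gm36026 on the opposite strand. The effect of this on the level of Krt8 was not tested.

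Krt18, its usual type I partner, was at 437, 578 and 499 CPM in Matrigel, at 502, 492 and 622 CPM in non-degradable PEG and at 733, 924 and 808 CPM in degradable PEG. The first 2 matrices overlapped and the degradable libraries lay above both. Krt18 rose by 0.70 ± 0.126 on the log2 scale in degradable PEG against Matrigel (adjusted p = 0.00417). Its difference was 0.09 ± 0.125 in non-degradable PEG (adjusted p = 0.650). Between the gels it was lower in non-degradable PEG by -0.61 ± 0.125 (adjusted p = 0.0435). That call was lost with a filter at a mean of 10 CPM (0.0568) and without Matrigel replicate 3 (0.0685), non-degradable PEG replicate 1 (0.184) or 2 (0.140), or degradable PEG replicate 2 (0.161) or 3 (0.0776).

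Krt19, a type I chain of ducts and crypts that lacks most of the tail domain, was at 463, 495 and 438 CPM in Matrigel. It was at 741, 671 and 830.04 CPM in non-degradable PEG and at 622, 786 and 741 CPM in degradable PEG. Every PEG library lay above every Matrigel library, and the gels overlapped. Krt19 rose by 0.68 ± 0.103 on the log2 scale in non-degradable PEG (adjusted p = 0.00137) and by 0.62 ± 0.103 in degradable PEG (adjusted p = 0.00265). Between the gels the difference was 0.06 ± 0.102 (adjusted p = 0.808). Both rises passed under each of 16 alternative settings, and Krt19 was the only member that passed against Matrigel in both gels.

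Krt20, the keratin of differentiated intestinal cells, was at 29.9, 28.1 and 24.8 CPM in Matrigel, at 46.4, 41.2 and 59.9 CPM in non-degradable PEG and at 24.6, 25.3 and 31.8 CPM in degradable PEG. Non-degradable PEG lay above both other matrices in every library, and Matrigel and degradable PEG overlapped. The rise against Matrigel was 0.83 ± 0.143 on the log2 scale, or 1.78-fold (adjusted p = 0.00295), and it passed under each of 16 alternatives. Against degradable PEG it was 0.85 ± 0.143 (adjusted p = 0.0211), and this call was lost without non-degradable PEG replicate 1 (0.0758), degradable PEG replicate 1 (0.0524) or degradable PEG replicate 2 (0.116). Degradable PEG against Matrigel gave -0.02 ± 0.143 (adjusted p = 0.949).

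Enterocyte markers, genes of differentiated cells like Krt20, were counted beside it. Of 12 tested, 4 were higher and 2 lower in non-degradable PEG than in Matrigel, 1 was higher and 5 lower in degradable PEG than in Matrigel, and 6 were higher and 0 lower in non-degradable than in degradable PEG. Of all tested genes, 16.8%, 12.2% and 1.28% passed in either direction in these comparisons. The sum of the 12 was 1076 to 1214 CPM in Matrigel, 1242 to 1582 CPM in non-degradable PEG and 1092 to 1177 CPM in degradable PEG. Markers of goblet cells, which can also hold Krt20, summed to 572 to 1043 CPM in Matrigel, 190.1 to 257 CPM in non-degradable PEG and 138 to 202 CPM in degradable PEG. Fcgbp made up most of this sum, at means of 539, 161 and 106 CPM in that order. Against Matrigel, 3 of 8 goblet markers passed as lower with the non-degradable gel and 5 did not pass, beside 16.8% of all tested genes. With the degradable gel 4 passed as lower and 4 did not pass, beside 12.2%. Paneth cell markers summed to 939.8 to 1697 CPM, 474 to 680.5 CPM and 649.97 to 725 CPM in the same order of matrices, and enteroendocrine markers to 90.02 to 149 CPM, 17.7 to 24.1 CPM and 24.9 to 36.1 CPM. Of the 8 Paneth cell markers, 1 was higher and 5 lower in non-degradable PEG than in Matrigel. In degradable PEG 2 were higher and 5 lower, beside 16.8% and 12.2% of all tested genes in these 2 comparisons. Pla2g2a was at means of 122, 187 and 315 CPM, higher in both gels, and Lyz1 at 503, 84.1 and 64.0 CPM, lower in both. Among 8 enteroendocrine markers, 6 passed as lower with the non-degradable gel than with Matrigel and 2 did not pass. With the degradable gel 4 passed as lower and 4 did not pass, beside the same 16.8% and 12.2%. The part of these cells in the keratin differences was not tested.

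Krt7, a type II chain of ductal and other simple epithelia, was at 252, 305 and 257 CPM in Matrigel, at 308, 308 and 299 CPM in non-degradable PEG and at 374, 428 and 347 CPM in degradable PEG. The degradable libraries lay above all others. The rise in degradable PEG was 0.50 ± 0.0933 on the log2 scale (adjusted p = 0.00552), which passed under each of 16 alternatives. Non-degradable PEG gave 0.17 ± 0.0932 against Matrigel (adjusted p = 0.239) and -0.33 ± 0.0932 against degradable PEG (adjusted p = 0.137). The latter difference passed under 3 of 16 alternatives: DESeq2 (0.0332), no filter (0.0399) and the replicate block (0.0381). The spread of Krt7 within non-degradable PEG was small, with an SD of 5.27 CPM on a mean of 305 CPM, beside SDs of 29.0 CPM in Matrigel and 41.3 CPM in degradable PEG. The gene Gm671 overlaps Krt7 on the opposite strand.

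Krt23, a type I chain, was at 48.1, 64.4 and 64.5 CPM in Matrigel, at 43.6, 43.5 and 49.1 CPM in non-degradable PEG and at 52.3, 63.2 and 59.6 CPM in degradable PEG. It was the only member that passed as lower in non-degradable PEG than in Matrigel, at -0.38 ± 0.116 on the log2 scale (adjusted p = 0.0461). Matrigel replicate 1 nevertheless lay within the range of the non-degradable libraries. The call was lost under 8 of 16 alternatives, where the adjusted p ran from 0.00786 to 0.151 over all 16. It was lost with upper-quartile scaling (0.0622) and with a mean of at least 10 CPM (0.0662). It was also lost without Matrigel replicate 2 (0.151) or 3 (0.128), without non-degradable PEG replicate 1 (0.120), 2 (0.114) or 3 (0.0676), and without degradable PEG replicate 3 (0.0570). Degradable PEG gave -0.02 ± 0.116 against Matrigel (adjusted p = 0.943), and the difference between the gels was -0.36 ± 0.116 (adjusted p = 0.193). The latter passed under 1 of 16 alternatives, the replicate block (0.0495).

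Krt80, a type II chain whose protein lies near desmosomes and the cell edge, was the least abundant member. Its reads numbered 69, 150 and 73 in Matrigel, then 83, 58 and 94 with the non-degradable gel and 191, 154 and 188 with the degradable one. As CPM these were 1.77, 3.16 and 1.61, then 2.19, 1.47 and 2.15, then 5.02, 3.81 and 4.86. Degradable PEG lay above all other libraries. The rise there was 1.06 ± 0.264 on the log2 scale against Matrigel (adjusted p = 0.0239), the largest of the 7 in that comparison and the one with the widest error. The call was lost without Matrigel replicate 1 (0.0848), Matrigel replicate 3 (0.0855) or degradable PEG replicate 3 (0.0722). Non-degradable PEG gave -0.17 ± 0.273 against Matrigel (adjusted p = 0.709) and -1.23 ± 0.268 against degradable PEG (adjusted p = 0.0541). The latter difference passed under 7 of 15 alternatives, with adjusted p from 0.00101 to 0.158 over the 15. Those 7 were upper-quartile scaling (0.0434), DESeq2 (0.00101), no filter (0.00164), the replicate block (0.0450), the compared groups alone (0.0267) and leaving out Matrigel replicate 1 (0.0465) or 2 (0.0247). Of its 50-base windows 5.003% were covered by the antisense gene Gm35853, and the strand setting of the counting is not given in the sources used here.

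Single libraries moved several keratins together. Matrigel replicate 2 was the highest of its matrix for Krt7, Krt8, Krt18, Krt19 and Krt80. Non-degradable PEG replicate 3 was the highest of its matrix for Krt8, Krt18, Krt19, Krt20 and Krt23, and degradable PEG replicate 2 for Krt7, Krt8, Krt18, Krt19 and Krt23. The members are therefore not independent readings of a matrix.

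The make-up of the keratin pool is given as each gene's share of the summed CPM/kb of the 7. Krt19 made up 24.6 ± 1.33% in Matrigel, 31.1 ± 0.795% with the non-degradable gel and 23.8 ± 0.653% with the degradable one (SD, n = 3). Krt18 made up 29.1 ± 1.79%, 24.5 ± 0.728% and 29.9 ± 0.686% in the same order, and Krt8 36.4 ± 0.656%, 35.8 ± 1.06% and 38.6 ± 0.506%. In non-degradable PEG Krt19 thus took a larger share of the type I chains and Krt18 a smaller one. Krt7 took 5.51 ± 0.106%, 4.94 ± 0.661% and 4.92 ± 0.476%, which depends on its long transcript: per kilobase of coding sequence it took 12.1 ± 0.228%, 10.9 ± 1.37% and 10.9 ± 0.997%. Krt23 took 3.13 ± 0.407%, 1.91 ± 0.114% and 1.95 ± 0.0287%, Krt20 was at 1.20 ± 0.160%, 1.66 ± 0.116% and 0.744 ± 0.116%, and Krt80 had means of 0.0581%, 0.0414% and 0.0792%.

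**Figure D3:**
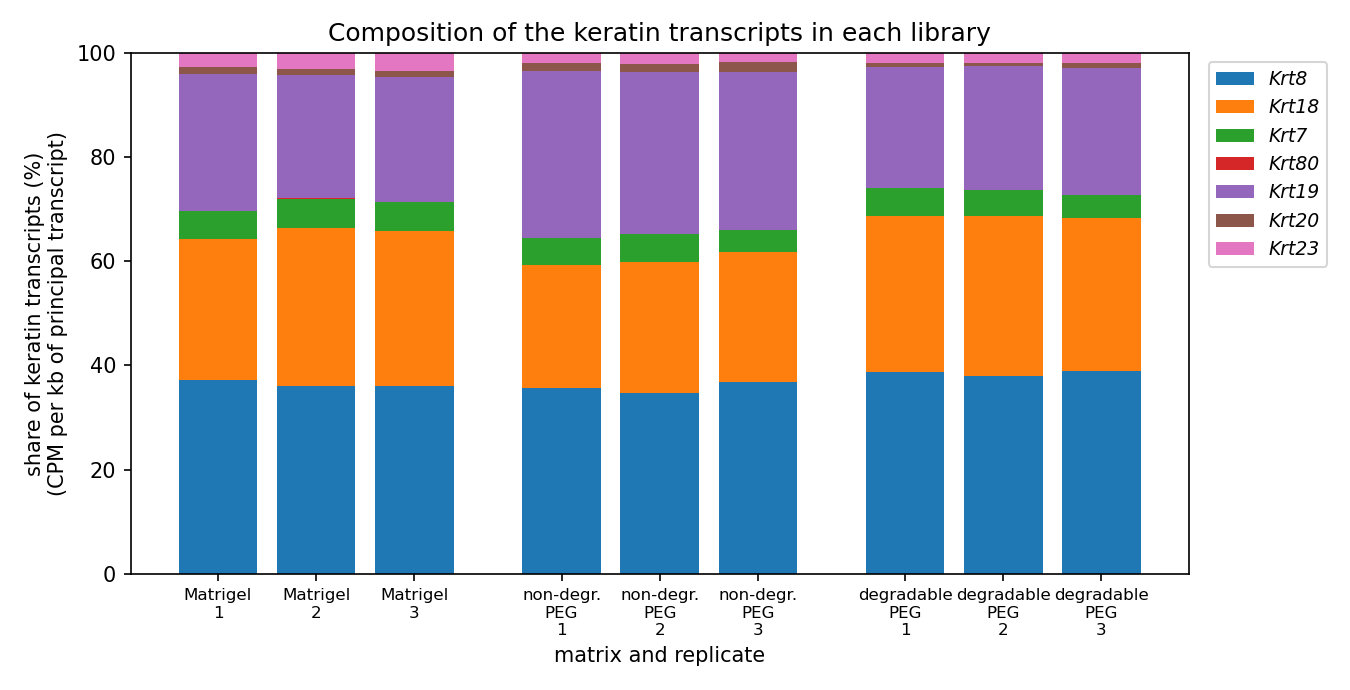
Share (%) of each keratin in the summed CPM/kb of the 7, as 1 stacked bar from 0 to 100% for each of the 9 libraries, grouped by matrix. The band of Krt19 is widest in the 3 libraries of non-degradable PEG, with a mean of 31.1% against 24.6% in Matrigel, and that of Krt80 is too thin to see.

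The summed type II level stood to the summed type I level as 0.722 ± 0.0191 in Matrigel, 0.688 ± 0.0118 with the non-degradable gel and 0.774 ± 0.0190 with the degradable one (CPM/kb, SD, n = 3). The ranges were 0.708 to 0.744, 0.675 to 0.699 and 0.757 to 0.795, so no matrix overlapped another. That separation depends on the length used. Per kilobase of all annotated exons, the log2 ratio in Matrigel (-0.49 to -0.40) overlapped that in non-degradable PEG (-0.53 to -0.46), and degradable PEG lay above both (-0.38 to -0.32). The order also depends on what is summed. For the pair Krt8 to Krt18 alone the ratio was 1.25 ± 0.103, 1.46 ± 0.0597 and 1.29 ± 0.0458, with non-degradable PEG highest. The ratios rest on chosen members and on transcript lengths and are given as a description, with no test.

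Genes with patterns most like each keratin were taken as the 3 with the highest Pearson correlation of log2 CPM over the 9 libraries, among 10648 genes at a mean of at least 5 CPM. These correlations span 3 matrices and so mostly follow the differences between them, and they are a description. For Krt8 the genes were Tmsb4x, an actin-sequestering peptide (r = 0.990), Smad7, an inhibitor of TGF-beta signalling (0.986), and Bcam, a receptor for laminin (0.982). For Krt18 they were Myl12a, a myosin light chain (0.982), A530084C06Rik (0.973) and Fam83g (0.973). For Krt7 they were Tagln2, an actin-binding protein (0.964), Tgif1 (0.961) and Grasp (0.961). For Krt19 they were Stap2 (0.994), Arrdc2 (0.991) and Hmox1, which degrades haem (0.986). For Krt20 they were Myo1d, a myosin (0.982), Mttp, which loads lipid onto lipoproteins in enterocytes (0.980), and Cyp3a13, a cytochrome P450 (0.974). For Krt23 they were Tpd52l1 (0.960), Lsm14b (0.942) and Ap1m1 (0.936), and for Krt80 Ffar4 (0.950), Sinhcaf (0.942) and 4930539E08Rik (0.937). No gene appears on the lists of 2 keratins.

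Of the 54 keratin genes, 34 had any read and 14 had enough to be tested: the 7 members and Krt4, Krt10, Krt15, Krt32, Krt36, Krt39 and Krt88. The list of stratified keratins, which belong to skin and other layered epithelia, had 11 genes, of which Krt6a, Krt6b and Krt17 were at 0 in all 9 libraries. The 11 summed to 2.47 CPM to 4.99 CPM. Of all tested genes 16.8% passed with edgeR in non-degradable PEG against Matrigel, 12.2% in degradable PEG and 1.28% between the gels. The 3 tested from the list, Krt4, Krt10 and Krt15, gave 0 calls in each comparison with edgeR. They also gave 0 at an unadjusted p under 0.05 and 0 with DESeq2. Krt4, the most abundant of them, was at 2.04 ± 1.29, 2.68 ± 0.806 and 2.33 ± 0.581 CPM in Matrigel, non-degradable and degradable PEG, and its differences from Matrigel were 0.39 ± 0.441 (adjusted p = 0.584) and 0.19 ± 0.444 (0.824). Against Matrigel, Krt10 gave -0.43 ± 0.238 (adjusted p = 0.233) in non-degradable and -0.41 ± 0.238 (0.295) in degradable PEG, and Krt15 gave -0.38 ± 0.357 (0.504) and -0.16 ± 0.351 (0.811). The hair keratins Krt32 and Krt39 outside the list passed and are named for that reason, after their values were seen. Krt32, with 95 reads in all 9 libraries, fell by 1.32 ± 0.397 on the log2 scale in non-degradable PEG (adjusted p = 0.0423), and Krt39, with 93 reads, rose by 1.19 ± 0.324 in degradable PEG (adjusted p = 0.0353). The call of Krt32 was lost under 8 and that of Krt39 under 10 of 15 alternatives, and each was lost without any 1 of the 6 libraries it compares, at adjusted p up to 0.172 for Krt32 and 0.122 for Krt39 among these.

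The other parts of the keratin filament system were followed in 26 genes, of which 24 were tested: 9 of desmosomes, 8 plakins and hemidesmosome genes, and 7 of proteins that bind or regulate keratins. In non-degradable PEG against Matrigel 5 were higher and 1 lower, with a median of 0.0408 on the log2 scale. In degradable PEG 2 were higher and 1 lower, with a median of 0.0414. Between the gels 0 of 24 passed with edgeR, with 3 at an unadjusted p under 0.05 and 0 with DESeq2. Of all tested genes 16.8%, 12.2% and 1.28% passed in these comparisons, and nothing is read from them about the lists.

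Among the keratin-binding proteins, Sfn (14-3-3 sigma, an epithelial adaptor) was at 21.9, 24.9 and 27.7 CPM in Matrigel, at 39.6, 34.9 and 46.2 CPM in non-degradable PEG and at 30.4, 38.7 and 39.7 CPM in degradable PEG. All PEG libraries lay above all Matrigel libraries. Sfn rose by 0.69 ± 0.132 on the log2 scale in non-degradable PEG (adjusted p = 0.00511) and by 0.55 ± 0.132 in degradable PEG (0.0208). The latter call was lost without Matrigel replicate 1 (0.0787) or 2 (0.0544) or degradable PEG replicate 2 (0.0654) or 3 (0.0787). Fam83h, which brings the kinase CK1 to keratin filaments, rose by 0.26 ± 0.0779 in non-degradable (adjusted p = 0.0426) and by 0.27 ± 0.0779 in degradable PEG (0.0474). Both of its calls were lost under 7 of 16 alternatives, with adjusted p up to 0.190 without non-degradable PEG replicate 3 and 0.137 without Matrigel replicate 3.

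Of 9 desmosome genes tested, 1 was higher and 1 lower in non-degradable PEG than in Matrigel, beside 16.8% of all tested genes. These were the plakophilins Pkp2 (higher) and Pkp1 (lower). Plakophilins link desmosomal cadherins to the keratin anchor. The plakophilins Pkp3 (-0.05 ± 0.0771 on the log2 scale, adjusted p = 0.672) and Pkp4 (-0.19 ± 0.0676, 0.0796) did not pass. Pkp2 was at 80.8, 77.2 and 83.0 CPM in Matrigel, at 104, 98.5 and 112 CPM in non-degradable PEG and at 91.5, 85.9 and 95.9 CPM in degradable PEG, and it rose by 0.39 ± 0.0713 on the log2 scale in non-degradable PEG (adjusted p = 0.00429), under each of 16 alternatives, beside 0.18 ± 0.0713 in degradable PEG (0.127). Pkp1 was at 119, 91.8 and 115 CPM in Matrigel, at 87.7, 76.4 and 86.2 CPM in non-degradable PEG and at 79.7, 77.7 and 85.5 CPM in degradable PEG. It fell by 0.38 ± 0.0984 in non-degradable PEG (adjusted p = 0.0237) and by 0.42 ± 0.0985 in degradable PEG (0.0177). Every PEG library lay under every Matrigel library. The first call was lost without Matrigel replicate 1 (0.0902) or 3 (0.0728) or non-degradable PEG replicate 2 (0.0774) or 3 (0.0577), and the second without Matrigel replicate 1 (0.0737) or 3 (0.0692) or degradable PEG replicate 2 (0.0557).

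Of 8 plakin and hemidesmosome genes tested, 2 were higher and 0 lower in non-degradable PEG than in Matrigel, beside 16.8% of all tested genes. Both were plakins, the large linkers between filaments and junctions. In degradable PEG 0 of the 8 passed, beside 12.2% of all tested genes. Plec (plectin) was at 85.2, 92.8 and 107 CPM in Matrigel, at 127, 113 and 149.5 CPM in non-degradable PEG and at 110.2, 121 and 135 CPM in degradable PEG. Its rise in non-degradable PEG was 0.45 ± 0.117 on the log2 scale (adjusted p = 0.0231). Ppl (periplakin) rose by 0.32 ± 0.0894 (adjusted p = 0.0311), from 43.3 ± 3.32 to 54.1 ± 5.50 CPM (SD, n = 3). Both calls were lost without Matrigel replicate 1 (0.0916 for Plec and 0.119 for Ppl) or 2 (0.0691 and 0.0651), and without non-degradable PEG replicate 1 (0.0525 and 0.0651) or 3 (0.0988 and 0.140). Degradable PEG differed from Matrigel by 0.36 ± 0.117 for Plec (adjusted p = 0.0683) and by 0.20 ± 0.0895 for Ppl (0.172). For both genes its libraries lay above all Matrigel libraries, where ranges were apart for 30.4% of all tested genes.

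**Figure D4:**
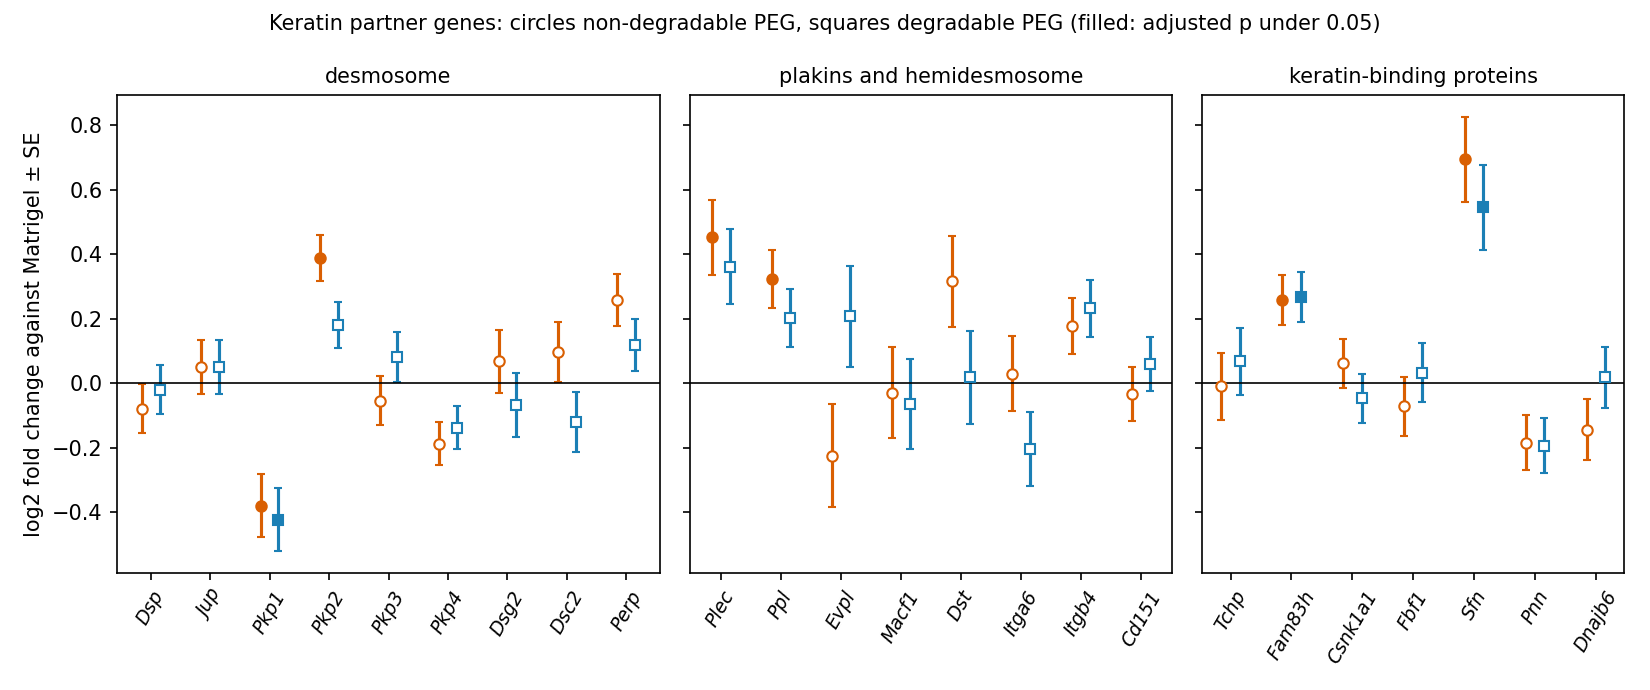
Log2 fold change ± SE against Matrigel of the 24 tested partner genes, with circles for non-degradable and squares for degradable PEG, filled where the adjusted p was under 0.05. Sfn lies highest, at 0.69 and 0.55, and Pkp1 lowest, at -0.38 and -0.42.

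Of 8 genes for other intermediate filaments, 5 were tested. Vim (vimentin, the filament of mesenchymal and dedifferentiated cells) was at 120.2, 241 and 265 CPM in Matrigel, at 76.8, 82.1 and 109.8 CPM in non-degradable PEG and at 87.4, 140.2 and 149 CPM in degradable PEG. It fell by 1.22 ± 0.276 on the log2 scale in non-degradable PEG (adjusted p = 0.0129), beside -0.73 ± 0.273 in degradable PEG (0.108). Lmnb1 (lamin B1 of the nuclear lamina) fell by 0.36 ± 0.0789 (adjusted p = 0.0117), a call lost without non-degradable PEG replicate 3 (0.0502). Lmna (lamins A and C) was at 86.6, 105 and 104 CPM in Matrigel, at 112, 110.5 and 159 CPM in non-degradable PEG and at 153, 201 and 208 CPM in degradable PEG. It rose by 0.93 ± 0.155 in degradable PEG (adjusted p = 0.00282), beside 0.37 ± 0.154 in non-degradable PEG (0.126). Between the gels 0 of 5 passed with edgeR, with 1 at an unadjusted p under 0.05 and 1 with DESeq2. Of all tested genes 1.28% passed there with edgeR and 3.44% with DESeq2, and 2203 of 14870 had an unadjusted p under 0.05.

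Markers of other cells that carry simple keratins were counted beside these results. For scale, edgeR called 9.71% of all tested genes higher and 7.13% lower with the non-degradable gel than with Matrigel. With the degradable gel against Matrigel it called 7.42% higher and 4.79% lower. For the non-degradable against the degradable gel the shares were 0.814% and 0.464%. Tuft cells, which hold much Krt18, had markers that summed to 9.03 to 10.5 CPM in Matrigel, 3.64 to 4.24 CPM in non-degradable PEG and 3.59 to 4.92 CPM in degradable PEG, with Il25 at 0, and 3 of 4 tested were lower in each gel than in Matrigel. Mesothelium, which holds Krt7, Krt8, Krt18 and Krt19, had 4 markers that summed to 1.59 to 3.39 CPM in Matrigel, 34.0 to 45.1 CPM in non-degradable PEG and 11.2 to 12.8 CPM in degradable PEG. Msln made up most of it, at 2.13 ± 0.940, 33.0 ± 4.82 and 10.5 ± 0.425 CPM, while Wt1, a defining marker, was at 0 in every library of non-degradable PEG and at means of 0.0144 CPM in Matrigel and 0.0174 CPM in degradable PEG. Of the 4 markers 3 were tested, and 2 were higher in each gel than in Matrigel and in non-degradable than in degradable PEG. The 9 markers of gastric, squamous and urothelial cells summed to 2.55 to 3.52 CPM, 4.45 to 6.72 CPM and 4.26 to 4.89 CPM in the same order of matrices, with Gkn1 at 0. Of 3 tested, Upk1b was higher in non-degradable and Upk3a in degradable PEG than in Matrigel, both named after their values were seen. Their part in the keratin levels was not tested. Transcripts encoded in mitochondria, a sign of RNA and cell quality, summed to 29076 to 38343 CPM, 38279 to 45239 CPM and 30789 to 43328 CPM. Of the 9 genes listed 6 were tested. mt-Atp6 was at 0 in every library, and mt-Co2 and mt-Co3 had too few reads to be tested. The sum is therefore not the full mitochondrial share.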

How the data were processed

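The input was 9 tables of gene counts as deposited by the authors, 1 per library, with raw reads per gene in whole numbers. Per the submitters' processing notes, the tools were cutadapt 1.3, STAR 2.4.2a and HTSeq 0.6.1, with the genome GRCm38. Per the labels' protocols, RNA came from an RNeasy Micro kit and libraries were of the TruSeq stranded mRNA type. No annotation release or strand setting is stated there, so overlapping antisense genes are uncertain. The 5 tally rows per table were taken out (reads without a feature 7.29% to 11.2%, ambiguous reads 1.09% to 1.16%). GENCODE M21 named 46005 genes and gave lengths and positions, and RefSeq gave promoters.

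Libraries were scaled by TMM, filterByExpr kept 14870 genes, and 1 edgeR quasi-likelihood fit of all 9 libraries (6 residual and a median of 5.17 prior degrees of freedom) gave the 3 comparisons, with Benjamini-Hochberg adjustment over all tested genes and a threshold of 0.05. Standard errors were taken as |log2 fold change| divided by the root of the F statistic. Versions were edgeR 4.0.16, DESeq2 1.42.0 and limma 3.58.1 under R 4.3.3, and the fit was tested on simulated data. Alternatives were DESeq2 size factors, upper-quartile scaling, the DESeq2 Wald test, no filter, a mean of at least 10 CPM, a replicate block, the compared groups alone and leaving out each library.

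The members, the gene lists and the tests were chosen with earlier results of these data known. Named genes were the 7 keratins, the tested stratified keratins, up to 2 called genes of smallest adjusted p per partner list and comparison, and the 3 genes most correlated with each member. The ratio of type II to type I chains had been planned with an exact permutation test, which for 3 against 3 libraries cannot go below p = 0.1, and is given as values. Levels per kilobase used 1 principal transcript per gene, chosen after seeing the files.

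Same-numbered libraries of non-degradable PEG and Matrigel deviated together from their group means (r = 0.331, 0.176 and 0.186 for numbers 1, 2 and 3). By the rule that every r exceeds 0.1 the numbers could be taken as pairs there. That rests on the data, since the labels name no shared culture or day. The main p-values come from the fit without pairs, and the replicate block is 1 of the alternatives. With the block 26.1% of all tested genes passed in this comparison, against 16.8% without it.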

Additional observations from a re-analysis of the deposited data

How the results depend on the processing

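Over single genes and 16 alternatives, 578 values kept their direction and side of the threshold, 72 lost the threshold, 17 gained it and 23 changed sign. Krt19 and Krt20 in non-degradable PEG and Krt7, Krt8, Krt18 and Krt19 in degradable PEG, each against Matrigel, passed in all 16. With the replicate block 5 keratins passed between the gels (1 higher and 4 lower) instead of 2, beside 3.64% of all tested genes instead of 1.28%. In degradable PEG against Matrigel 5 partner genes passed instead of 3, beside 18.7% of all tested genes instead of 12.2%. With the block no other keratin or partner count moved by over 1.5 times. For degradable PEG against Matrigel and between the gels the replicate numbers did not meet the rule for pairs. There r of same-numbered libraries was 0.0712 to 0.258 and 0.0197 to 0.511, while 8 of 9 libraries correlated best with a library of their own number. Between the gels the DESeq2 Wald test gave 5 keratins, no filter 5 and a mean of at least 10 CPM 1. Of all genes tested at these settings 3.44%, 2.05% and 0.934% passed. At a mean of at least 10 CPM Krt18 lost its call (0.0568) and Krt80 was not tested. The cause of these changes was not tested.

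Leaving out 1 library gave 2 to 3 keratins in non-degradable PEG against Matrigel, 4 to 5 in degradable PEG against Matrigel and 0 to 3 between the gels. For partner genes it gave 2 to 8, 0 to 4 and 0 to 0 in the same order. The share of all tested genes that passed moved too, over 7.88% to 21.5%, 7.19% to 15.8% and 0.126% to 1.6%. On the log2 scale the ratio of type II to type I chains differed by -0.07, 0.10 and -0.17 in the same order, with Krt8 over Krt18 alone by 0.22, 0.047 and 0.17, and with 1 library left out by -0.085 to -0.049, 0.080 to 0.12 and -0.19 to -0.15. Lengths of coding sequence or of all exons, added after seeing the data, kept the directions of the ratio, but the difference of non-degradable PEG from Matrigel was -0.107 with coding sequence and -0.040 with all exons.

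The values that changed sign belonged to differences that had not passed. Without 1 library the log2 fold change ran from -0.024 to 0.20 for Krt18 and from -0.36 to 0.20 for Krt80 in non-degradable PEG against Matrigel. It ran from -0.15 to 0.050 for Krt20 and from -0.14 to 0.057 for Krt23 in degradable PEG against Matrigel, and from -0.038 to 0.13 for Krt19 between the gels. In degradable PEG against Matrigel, upper-quartile scaling gave 0.023 for Krt20 and 0.024 for Krt23, and a mean of at least 10 CPM gave 0.0069 and 0.0080. Krt4 ran from -0.042 to 0.896 in non-degradable and from -0.24 to 0.70 in degradable PEG against Matrigel, Krt15 from -0.54 to 0.13 in degradable PEG against Matrigel and from -0.50 to 0.16 between the gels, and Krt10 from -0.17 to 0.21 between the gels. Low counts limit Krt80, Krt4, Krt10, Krt15, Krt32 and Krt39, each under 200 reads in every library.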
